A study of Mus musculus with 3 samples.

Results

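Mucl2 and 6 secretoglobin genes (Scgb2b2, Scgb1b2, Scgb2b24, Scgb2b20, Scgb2a2 and Scgb1b27) were followed through single nuclei of the mouse lacrimal gland, the gland that secretes most of the watery layer of the tear film. These 7 genes, taken by symbol, are 7 of the 32285 genes in the count matrices. The nuclei were profiled by droplet RNA sequencing with 3' tags, and each transcript molecule carries a unique molecular identifier (UMI), so 1 UMI stands for 1 captured molecule. The series holds 3 libraries, 1 per group. The tamsulosin library came from mice with dry eye induced by scopolamine and dry stress that were also given tamsulosin, the scopolamine library from mice with the same dry eye model alone, and the control library from healthy mice. Scopolamine blocks the muscarinic acetylcholine receptors through which nerves drive tear secretion, and tamsulosin blocks alpha-1 adrenergic receptors. Strain, sex, age and the number of animals behind each library are not given in the sources used here, and a protocol text that covers several assays mentions a sort of fluorescent nuclei whose use for these libraries could not be settled. With 1 library per group there is no replicate check on any difference, no test was possible and no p-value is given. The intervals below are 95% intervals for counting error only.

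Secretoglobins are small secreted proteins of exocrine glands and airways. In the mouse, the Scgb1b genes encode alpha subunits and the Scgb2b genes beta-gamma subunits of the androgen-binding proteins, which are disulfide-linked dimers found in tears and saliva and best known for a part in mate recognition. The Scgb1b and Scgb2b genes stand as many copies in one cluster, where genes with the same number are commonly neighbours that point away from each other. Scgb2a2 belongs to another branch, whose human gene encodes mammaglobin A, and Mucl2 encodes a mucin-like secreted protein. Messenger RNA for secreted proteins works at the rough endoplasmic reticulum, outside the nucleus, so a preparation of nuclei can carry it both inside droplets as nuclear transcripts and as free RNA released from broken cells.

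Mucl2 lies at chr15:103895855-103899312 on the minus strand (mm10, GENCODE M21) and has 4 exons. Scgb2a2 lies at chr19:9847562-9852808 on the plus strand. The other 5 genes lie within 2732374 bases of chromosome 7, a stretch that holds 61 genes named Scgb. In map order they are Scgb2b2 at chr7:31290508-31304977 (plus strand), Scgb1b2 at chr7:31290519-31291821 (minus), Scgb2b20 at chr7:33364343-33366322 (minus), Scgb2b24 at chr7:33737190-33739312 (minus) and Scgb1b27 at chr7:34021483-34022881 (plus). Each secretoglobin member has 3 exons. Scgb1b2 lies inside the annotated span of Scgb2b2 on the other strand. Of the 2 annotated Scgb2b2 transcripts, 1 shares 55 exon bases with Scgb1b2 and the other, of 520 exon bases, shares 0. Whether reads were counted by strand is not given in the sources used here, so reads of these shared bases cannot be told apart between the pair.

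The bases just before the transcription start are shown for 5 members that were high together or that differ in level within the cluster, since these bases show how closely the Scgb2b copies are related. All 7 members matched a RefSeq promoter entry (GRCm38.p6). Each line gives the 80 bases before the start, 5′ to 3′ on the strand of the gene, and capitals mark TATAA read on either strand, where overlapping matches run together. The regions are chr7:31302689-31302768 for Scgb2b2 (plus strand), chr7:33739296-33739375 for Scgb2b24 (minus), chr7:33366320-33366399 for Scgb2b20 (minus), chr7:31291817-31291896 for Scgb1b2 (minus) and chr15:103899313-103899392 for Mucl2 (minus).
Scgb2b2: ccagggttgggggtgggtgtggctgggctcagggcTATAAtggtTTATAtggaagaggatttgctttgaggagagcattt
Scgb2b24: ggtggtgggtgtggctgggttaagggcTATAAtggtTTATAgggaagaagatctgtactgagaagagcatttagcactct
Scgb2b20: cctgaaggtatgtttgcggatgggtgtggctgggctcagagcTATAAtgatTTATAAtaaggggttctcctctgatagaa
Scgb1b2: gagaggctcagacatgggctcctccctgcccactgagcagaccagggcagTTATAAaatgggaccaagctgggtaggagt
Mucl2: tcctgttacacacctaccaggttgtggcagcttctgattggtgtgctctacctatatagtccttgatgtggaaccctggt

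The 3 Scgb2b members share the run tgggtgtggctggg of 14 bases shortly before their TATAA letters. That run was found in 9 of 32851 promoters of this table, and all 9 belong to Scgb2b genes. Over the 250 bases before the start, Scgb2b2 and Scgb2b24 were 78.7% identical, Scgb2b2 and Scgb2b20 72.8%, and Scgb2b24 and Scgb2b20 69.8%. Over their longest transcripts these pairs were 74.8, 74.4 and 74.8% identical. TATAA on either strand stood in the 80-base window of 4 of the 7 members (Scgb2b2, Scgb1b2, Scgb2b24 and Scgb2b20), against 8.74% of all promoters in the table. These are matches of letters, not bound sites.

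How far the counts can separate near copies differs by member. Of the 31-base words in the Scgb2b20 transcript, 76.5% also occur in another gene, most of them in Scgb2b7, and the share is 88.5% in the last 300 bases, where 3' tags fall. Counts of Scgb2b20 are therefore uncertain against Scgb2b7. In the last 300 bases the shared portion was 5.93% for Scgb1b27, 4.81% for Scgb1b2, 4.32% for Scgb2b2, 3.70% for Scgb2b24 and 0 for both Mucl2 and Scgb2a2.

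The deposited matrices held 12322 barcodes and 57969348 UMIs in the tamsulosin library, 10024 barcodes and 35237256 UMIs in the scopolamine library, and 7253 barcodes and 33500727 UMIs in the control library. After filtering, 10818, 9202 and 6773 nuclei remained in that order, 26793 in all, with medians of 3346.5, 1741.5 and 2326 UMIs. The shallowest deposited barcode had 1534 UMIs in the tamsulosin library, 967 in the scopolamine library and 1492 in the control library, so empty droplets, from which free RNA is usually measured, were not analysed here. Between 52 and 65 barcodes of each library had a sequence that also occurred in another library. The median mitochondrial share was 0.738% in tamsulosin nuclei, 0.263% in scopolamine nuclei and 0.116% in control nuclei, and the median number of genes at 1000 UMIs was 507, 551 and 687. These values moved with the members' share from library to library, and their part in it was not tested.

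Mucl2 and 3 of the secretoglobins were among the most abundant transcripts of the gland, and the other 3 were not. Mucl2 held 11.1% of all UMIs in the tamsulosin library, 8.67% in the scopolamine library and 2.05% in the control library, and ranked 1, 1 and 2 among all genes. Scgb2b2 held 5.51% in the tamsulosin library, 4.41% in the scopolamine library and 0.913% in the control library, at ranks 3, 3 and 6. Scgb1b2 held 4.93, 3.72 and 0.628% in the same order, at ranks 4, 4 and 7. Scgb2b24 followed with 1.28, 1.14 and 0.264%, at ranks 8, 7 and 22. In each library the order of these 4 was therefore the same, and none of them left the top 22 genes.

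The remaining 3 members were far lower. Scgb2b20 held 0.101% of UMIs in the tamsulosin library, 0.0271% in the scopolamine library and 0.00575% in the control library, at ranks 47, 423 and 3227. Scgb2a2 held 0.0358, 0.0151 and 0.00164%, at ranks 216, 980 and 6660. Scgb1b27, the gene of the alpha subunit of the androgen-binding protein of mouse saliva, held 0.00219, 0.000267 and 4.44e-05%, at ranks 4979, 11793 and 15340. A 3' tag counts a molecule once whatever its length, so these shares compare numbers of captured molecules between genes and were not divided by length.

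All 7 members together held 22.4% of the UMIs of all deposited barcodes in the tamsulosin library, 18.0% in the scopolamine library and 3.95% in the control library. The median share per barcode of the nuclei kept was 22.1, 18.4 and 4.65% in the same order. The share was thus similar whether it was read per library or per barcode, and it was lowest in the control library by both readings.

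Nuclei were grouped into 22 clusters without the 7 members or other tear protein genes, so the clusters do not rest on them. The classes partly do, since low-complexity clusters, described below, were named by a count of genes that included the members. These clusters, 1 and 16, held 53.0 and 36.1% member UMIs and were not counted as acinar-like. Other names come from marker genes and carry "-like". Acinar-like, named after the secretory cells, is partly a remainder class set by a weak criterion. Its 19 acinar markers summed to 6310, 6832 and 6044 counts per 1000000 UMIs (CPM) in acinar-like nuclei of the tamsulosin, scopolamine and control libraries. They summed to 2596, 3525 and 4332 CPM in macrophage-like nuclei, but to 6875, 7086 and 7608 CPM in duct-like and 6271, 7684 and 7450 CPM in myoepithelial-like nuclei, and to 5417 CPM in B or plasma-like nuclei of the control library. These markers thus stood above their macrophage-like level, and did not set the class apart from the duct-like or myoepithelial-like nuclei. Acinar-like nuclei numbered 2115 in the tamsulosin library (mostly clusters 13 and 17), 2451 in the scopolamine library (mostly clusters 5 and 0) and 5173 in the control library (mostly clusters 3 and 2). The 14 macrophage markers summed to 3486, 3238 and 2669 CPM in macrophage-like nuclei, against 83.6, 95.1 and 168 CPM in acinar-like nuclei. Macrophages are not secretory cells of the gland, and macrophage-like nuclei of the same library (456 tamsulosin, 610 scopolamine and 317 control nuclei) served as the background level for free RNA.

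In acinar-like nuclei Mucl2 stood at 78244 CPM in the tamsulosin library, 54638 CPM in the scopolamine library and 18889 CPM in the control library. In macrophage-like nuclei it stood at 93881, 60016 and 20240 CPM, above the acinar-like level of each library. Scgb2b2 stood at 37710, 27096 and 8508 CPM in acinar-like nuclei, against 49046, 33555 and 9082 CPM in macrophage-like nuclei. Scgb1b2, its overlapping partner, stood at 34382, 23425 and 6230 CPM in acinar-like nuclei, against 43702, 27650 and 5611 CPM in macrophage-like nuclei. For these 3 genes the acinar-like nuclei were lower than the macrophage-like nuclei in every library, except for Scgb1b2 in the control library.

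Scgb2b24 had 9347 CPM in tamsulosin, 7484 CPM in scopolamine and 2643 CPM in control acinar-like nuclei, against 11302, 8554 and 2330 CPM in macrophage-like nuclei. Scgb2b20 had 651, 203.8 and 54.3 CPM in acinar-like nuclei, against 695, 283 and 57.1 CPM in macrophage-like nuclei. Scgb2a2 had 275, 106.6 and 16.2 CPM in acinar-like nuclei, against 276, 108 and 11.3 CPM in macrophage-like nuclei. Scgb1b27 had 12.9, 0.993 and 0.246 CPM in acinar-like nuclei, from 168, 13 and 6 UMIs, against 13.6, 2.53 and 0 CPM in macrophage-like nuclei, from 22, 4 and 0 UMIs. From the top of the abundance range to the bottom, then, the members were found in nuclei of immune cells at about the level seen in nuclei named after secretory cells.

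**Figure D1:**
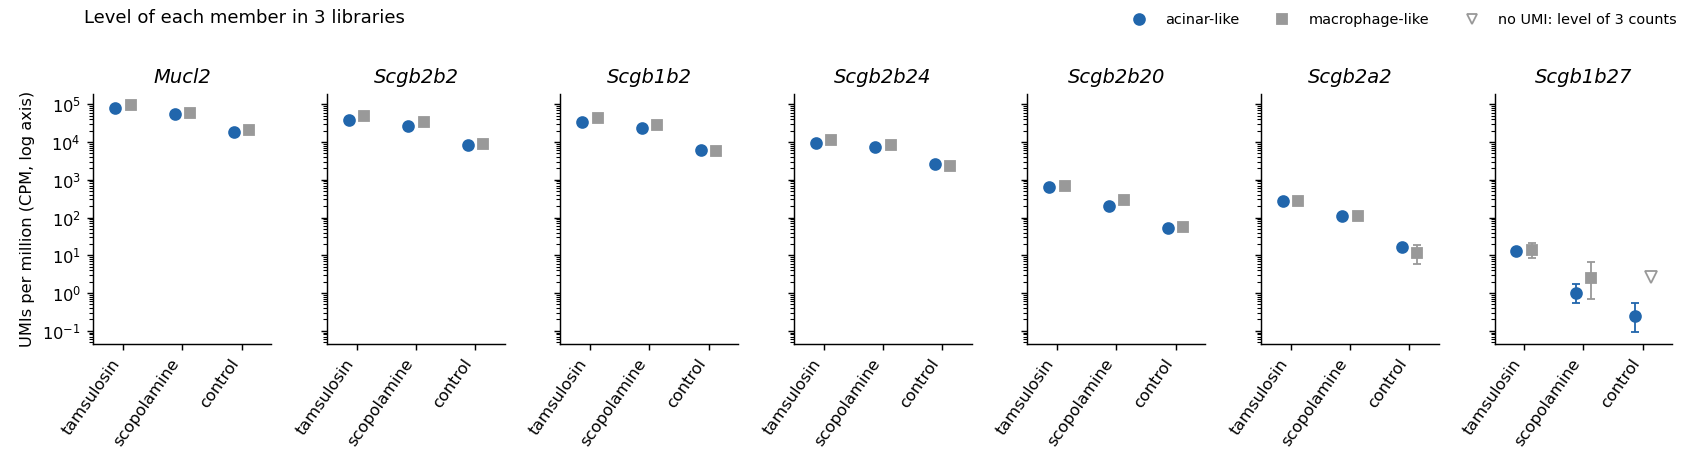
Level of each member in CPM (log axis) in acinar-like nuclei (circles) and macrophage-like nuclei (squares) of the tamsulosin, scopolamine and control libraries, left to right, with 95% Poisson intervals; the open triangle marks the level of 3 counts where no UMI was found. Both classes step down together across each panel, and Mucl2 in acinar-like nuclei stands at 78244, 54638 and 18889 CPM.

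Summed over the members, the ratio of acinar-like to macrophage-like nuclei was 0.807 (0.804 to 0.810) in the tamsulosin library, 0.868 (0.864 to 0.872) in the scopolamine library and 0.973 (0.964 to 0.983) in the control library. Its direction depended on the processing. Under alternatives its log2 ran from -0.39 to 0.58 in the tamsulosin, -0.26 to 0.71 in the scopolamine and -0.075 to 0.14 in the control library. The highest tamsulosin and scopolamine values came with low-complexity nuclei counted as acinar-like. Those nuclei were set aside by a gene count that included the members, so the ratios of the main processing rest partly on the members. For the single members with at least 100 UMIs in both classes the ratio of the main processing lay between 0.720, for Scgb2b20 in the scopolamine library, and 1.13, for Scgb2b24 in the control library. Of the 448 Scgb2b20 UMIs in scopolamine macrophage-like nuclei, 132 lay in a single barcode. With the barcode richest in Scgb2b20 left out of each class, a check added after seeing the data, the 0.720 became 0.980. A gene was counted as higher or lower here when it differed by at least 1.5-fold relative to the median of all genes that averaged 20 CPM or more over both groups. By that measure 0 members were higher and 0 lower in acinar-like than in macrophage-like nuclei, of 6, 6 and 5 members measured in the tamsulosin, scopolamine and control libraries. Of all genes measured, 20.6% were higher in the tamsulosin library, 16.9% in the scopolamine library and 5.46% in the control library, and 23.1, 21.3 and 15.7% were lower. The median relative log2 ratio of genes for secretory cell regulators was 1.26, 0.96 and 0.46, and 10 of 11, 10 of 11 and 2 of 12 measured genes of that list were higher in acinar-like nuclei (1, 1 and 2 were lower). Chrm3, Bhlha15, Xbp1, Creb3l1, Spdef and Sox10 of that list are also acinar markers used in naming the class. The higher regulators are therefore partly built in by the naming. They give no independent contrast to the members, none of which passed the fold.

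Member UMIs were also counted per barcode in each class. In the tamsulosin library the median was 708 in acinar-like, 548 in duct-like, 626 in myoepithelial-like, 587.5 in fibroblast-like, 571 in macrophage-like and 591 in T or NK-like nuclei. In the scopolamine library it was 424, 240, 391, 330, 253 and 266 in the same order of classes. In the control library it was 109, 97, 128.5, 103, 106 and 101. Among these classes each library had a level of its own. The lowest of these medians in the tamsulosin library (548) lay above the highest in the scopolamine library (424), which lay above the highest in the control library (128.5). Low-complexity nuclei, described below, did not keep that order, with medians of 691, 2939 and 1319.5.

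As a share of summed UMIs the classes spread more widely, and their median depths ranged from 2552 to 4454 UMIs in the tamsulosin library, 1712 to 3942 in the scopolamine library and 2138 to 3762 in the control library. In the tamsulosin library the share lay between 10.8% in fibroblast-like and 26.8% in myoepithelial-like nuclei. In the scopolamine library it lay between 7.16% in fibroblast-like and 16.4% in myoepithelial-like nuclei. In the control library it lay between 2.56% in duct-like and 4.33% in myoepithelial-like nuclei. Myoepithelial cells are the contractile cells around the acini, and myoepithelial-like nuclei had the highest share of summed UMIs among the 6 classes in each library. By the median share per barcode they were not first, with 23.5% against 23.95% in T or NK-like nuclei of the tamsulosin library, 14.5% against 17.1% in T or NK-like nuclei of the scopolamine library, and 3.98% against 4.79% in acinar-like nuclei of the control library. Single myoepithelial-like barcodes held up to 25612 member UMIs in the tamsulosin library and 20280 in the scopolamine library, beside medians of 626 and 391.

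**Figure D2:**
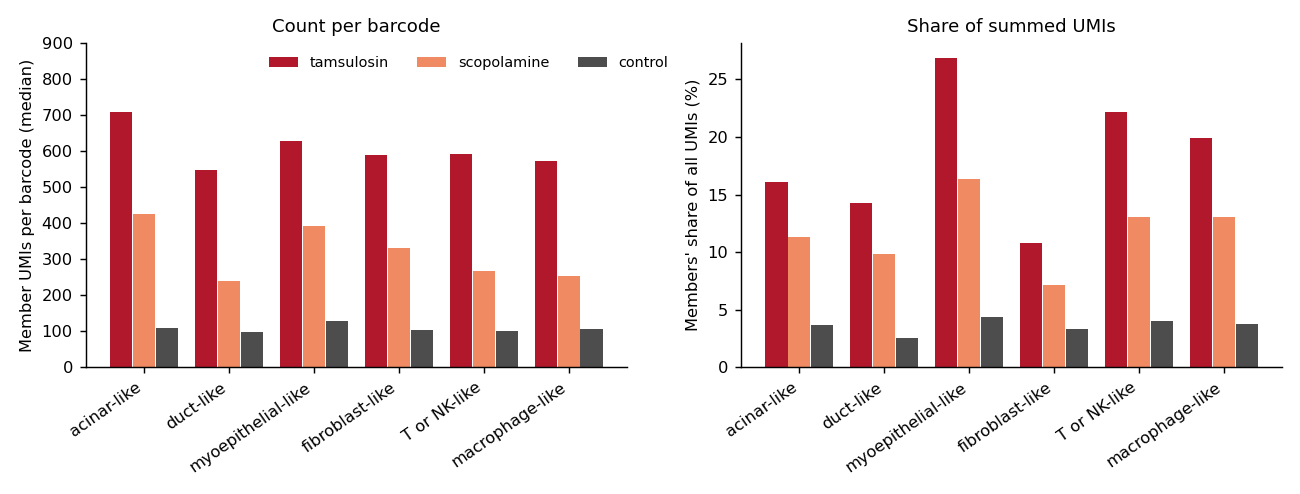
Left, median member UMIs per barcode in 6 classes; right, the members' share of all UMIs in percent of the same classes. Bars run tamsulosin, scopolamine and control from left to right in each class, with no replicate; the libraries separate in every class on the left, with class medians of 548 to 708, 240 to 424 and 97 to 128.5 UMIs.

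When acinar-like nuclei were ranked by total UMIs and split into 10 bins of equal size, the members' median share in the shallowest bin was 25.9% in the tamsulosin library, 19.5% in the scopolamine library and 5.36% in the control library. In the deepest bin it was 11.6, 8.56 and 2.31%. The members' UMIs per barcode moved the other way, with 460.5, 222 and 82 in the shallowest bin and 2120, 1290 and 385 in the deepest. Deep acinar-like nuclei therefore carried more member molecules, though fewer per molecule of other genes.

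Whether acinar-like nuclei carried more than macrophage-like nuclei was read at matched numbers of UMIs from all other genes. Between 1500 and 2000 other UMIs, the median was 529 against 541.5 member UMIs in the tamsulosin library, 270.5 against 261 in the scopolamine library and 93 against 94 in the control library, acinar-like first. Between 2000 and 3000 other UMIs it was 608 against 578, 333 against 281 and 116 against 105. Between 5000 and 10000 other UMIs it was 948 against 638.5 in the tamsulosin library (515 and 20 nuclei), 762 against 393 in the scopolamine library (580 and 31 nuclei) and 220.5 against 192 in the control library (634 and 25 nuclei). The ratios in that range were 1.48, 1.94 and 1.15. They were 1.05, 1.44 and 1.28 between 3000 and 5000 other UMIs, and 1.24, 1.76 and 1.098 above 10000, where 8, 12 and 15 macrophage-like nuclei lay. At 1500 to 2000 other UMIs the 2 classes were level, and at 5000 to 10000 acinar-like nuclei were above macrophage-like nuclei in every library, by the most in the scopolamine library. The ratio did not climb steadily with depth, and in the control library it was highest between 3000 and 5000. The macrophage-like medians between 5000 and 10000 rest on 20 to 31 nuclei, and no test of the difference was made. High counts at depth were not particular to acinar-like nuclei. Between 5000 and 10000, myoepithelial-like medians were 2331, 542 and 214, above the acinar-like median in the tamsulosin library only. Duct-like medians there were lower, at 628.5, 325 and 110. Above 10000 in the control library, myoepithelial-like nuclei had 777.5 and acinar-like nuclei 387.5.

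**Figure D3:**
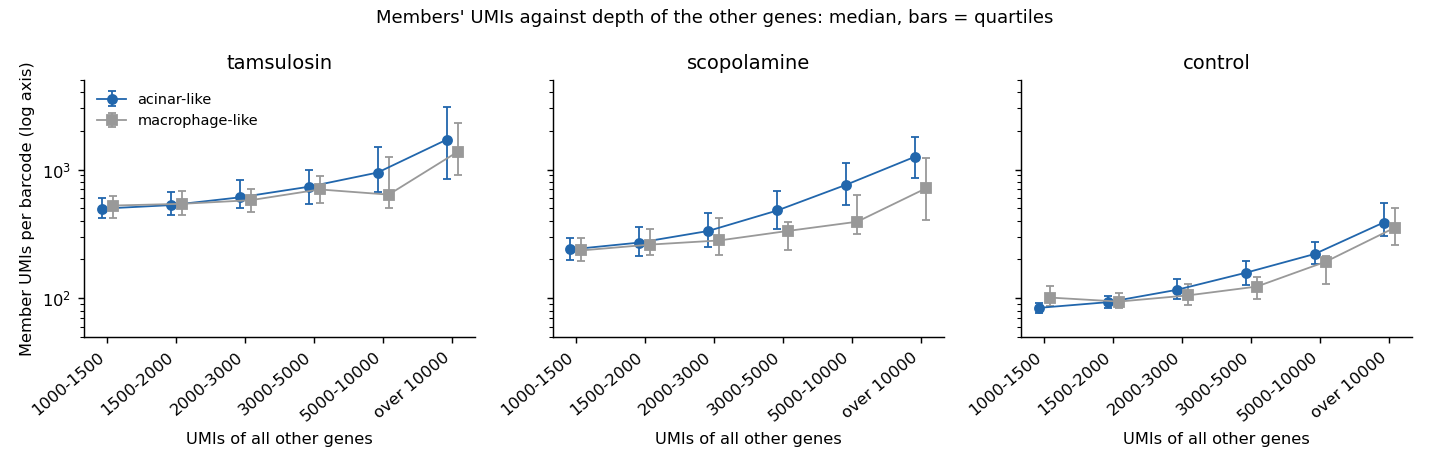
Member UMIs per barcode (log axis; points are medians, bars quartiles) against the number of UMIs from all other genes, for acinar-like nuclei (circles) and macrophage-like nuclei (squares) in the tamsulosin, scopolamine and control libraries, left to right. The curves lie close at 1500 to 2000 other UMIs (529 and 541.5 in the tamsulosin library) and part above 5000 (762 and 393 in the scopolamine library).

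The scopolamine library was set against the control library, the comparison for the dry eye model, first in acinar-like nuclei. Mucl2 was 2.89-fold (2.88 to 2.90) higher in the scopolamine library than in the control library, Scgb2b2 3.18-fold (3.17 to 3.20), Scgb1b2 3.76-fold (3.74 to 3.78) and Scgb2b24 2.83-fold (2.80 to 2.86). Scgb2b20 was 3.76-fold (3.51 to 4.01) and Scgb2a2 6.58-fold (5.88 to 7.37) higher. Scgb1b27 was 4.04-fold higher with an interval of 1.43 to 12.9, from 13 and 6 UMIs. All 6 members that reached 20 CPM were higher by at least 1.5-fold relative to the median of 5797 genes, which was -0.22 on the log2 scale, against 5.43% of all genes measured (3.45% were lower). Scgb1b27 stayed under that minimum.

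The macrophage-like nuclei showed the same difference between these libraries, and a larger one for most members. There the members together were 3.49-fold (3.45 to 3.52) higher in the scopolamine library than in the control library, against 3.11-fold (3.10 to 3.12) in acinar-like nuclei. That order depends on the make-up of the class, since with low-complexity nuclei counted as acinar-like the acinar-like log2 ratio was 2.44 instead of 1.64. Mucl2 was 2.97-fold, Scgb2b2 3.69-fold, Scgb1b2 4.93-fold, Scgb2b24 3.67-fold, Scgb2b20 4.96-fold and Scgb2a2 9.60-fold higher in macrophage-like nuclei. All 6 members measured there passed the fold, against 11.5% of all genes. In the other 4 classes the members together were 3.83-fold (duct-like), 3.78-fold (myoepithelial-like), 2.19-fold (fibroblast-like) and 3.24-fold (T or NK-like) higher. The higher level in the scopolamine library was therefore seen in each of the 6 classes, immune nuclei included.

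The tamsulosin library was set against the scopolamine library, the comparison for the drug within the model. In acinar-like nuclei Mucl2 was 1.43-fold higher in the tamsulosin library, Scgb2b2 1.39-fold, Scgb1b2 1.47-fold and Scgb2b24 1.249-fold (1.238 to 1.259). The class is made of different clusters in these libraries. Within clusters 5 and 13, given below for both libraries, Mucl2 was lower in the tamsulosin library. With the mixed shallow cluster counted as acinar-like, an alternative chosen after seeing the data, the log2 ratio of Scgb2b24 was -0.0051 instead of 0.32. The rarer members differed by more. Scgb2b20 was 3.19-fold (3.06 to 3.34) higher, Scgb2a2 2.58-fold (2.42 to 2.75) and Scgb1b27 13-fold (7.40 to 24.9), from 168 and 13 UMIs. Of those 168 UMIs, 27 lay in a single barcode. The tamsulosin library also held 206 nuclei with salivary gland markers, which carried 502 UMIs of Scgb1b27, and the scopolamine library held no such nuclei. Their part in the Scgb1b27 ratio was not tested. Of 6 members measured, 5 were higher by at least 1.5-fold relative to the class median of -0.15, against 3.45% of all genes measured (0.108% were lower), and Scgb2b24, at a relative log2 ratio of 0.47, was not. With a Leiden resolution of 2, 3 members passed, and with the mixed shallow cluster counted as acinar-like 2 passed. In macrophage-like nuclei all 6 passed, against 6.04% of all genes, and the members together were 1.53-fold higher there, against 1.42-fold in acinar-like nuclei. Over the other 4 classes that ratio lay between 1.46 and 1.70.

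Set against the control library, the tamsulosin library had the largest differences. In acinar-like nuclei Mucl2 was 4.14-fold higher, Scgb2b2 4.43-fold, Scgb1b2 5.52-fold and Scgb2b24 3.54-fold. Scgb2b20 was 12.0-fold (11.3 to 12.7), Scgb2a2 17.0-fold (15.3 to 18.9) and Scgb1b27 52.5-fold (23.6 to 145) higher, the last from 168 and 6 UMIs. Nuclei with salivary gland markers numbered 206 in the tamsulosin library and 37 in the control library, and their part in the Scgb1b27 ratio was not tested. All 6 members measured passed the fold, against 8.77% of all genes (3.88% were lower), and the same held for 6 of 6 in macrophage-like nuclei, against 16.2%. In macrophage-like nuclei Scgb2b20 was 12.2-fold and Scgb2a2 24.5-fold higher. The 3 comparisons share libraries with one another, so they are not independent.

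The share of nuclei with at least 1 UMI gave the same picture for the rarer members. With each nucleus thinned to 1000 UMIs, Scgb2b20 was seen in 38.4% of tamsulosin, 16.1% of scopolamine and 7.08% of control acinar-like nuclei, against 46.1, 19.4 and 6.62% of macrophage-like nuclei. Unthinned, the acinar-like shares were 79.9, 38.5 and 16.7%, at median depths of 4454, 3942 and 2138 UMIs. Scgb2a2 was seen in 23.4, 9.93 and 1.84% of thinned acinar-like nuclei, against 29.4, 13.5 and 2.21% of macrophage-like nuclei, and in 65.2, 31.6 and 5.97% of acinar-like nuclei unthinned. Thinning left out 24 acinar-like and 18 macrophage-like nuclei of the scopolamine library and none of the other libraries. Thinned in this way, acinar-like nuclei did not exceed macrophage-like nuclei in these shares by more than counting error in any library. Thinning matches total UMIs, not the UMIs of other genes, so these shares do not bear on the higher member counts of deep acinar-like nuclei.

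Which members made up the pool differed between libraries. In acinar-like nuclei Mucl2 gave 48.7% of the members' UMIs in the tamsulosin library, 48.4% in the scopolamine library and 52.0% in the control library. Scgb2b2 gave 23.5, 23.99 and 23.4%, and Scgb2b24 gave 5.82, 6.63 and 7.27%. Scgb1b2 gave 21.4, 20.7 and 17.1%, the one of the 4 with a clearly lower part in the control library. Macrophage-like nuclei had the same order, with 21.97, 21.24 and 15.03% for Scgb1b2 and 47.2, 46.1 and 54.2% for Mucl2. Across the 6 classes the part of Scgb1b2 lay within 21.1 to 22.1% in the tamsulosin library, 19.9 to 21.2% in the scopolamine library and 13.5 to 17.1% in the control library. The ratio of molecules of Scgb1b2 to Scgb2b2, an alpha and a beta-gamma gene, was 0.912 in tamsulosin, 0.865 in scopolamine and 0.732 in control acinar-like nuclei.

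In the control library that make-up also changed with depth. In acinar-like nuclei Scgb1b2 gave 14.0% (13.7 to 14.3) of the members' UMIs at 1000 to 1500 other UMIs and 20.12% (19.97 to 20.28) above 10000. Scgb2b24 gave 5.24% (5.05 to 5.44) and 9.74% (9.62 to 9.85), and Mucl2 53.6 and 49.6%. Control macrophage-like nuclei changed likewise, from 12.0 to 22.5% for Scgb1b2 and from 4.74 to 11% for Scgb2b24, with 15 nuclei in the deepest bin. Deep control nuclei of both classes thus held a make-up nearer that of the tamsulosin and scopolamine libraries for Scgb1b2. A rank correlation of Mucl2 with Scgb1b2 across single nuclei, given as a description since both rise with depth, was 0.88, 0.83 and 0.41 in tamsulosin, scopolamine and control acinar-like nuclei. In macrophage-like nuclei it was 0.87, 0.85 and 0.59.

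**Figure D4:**
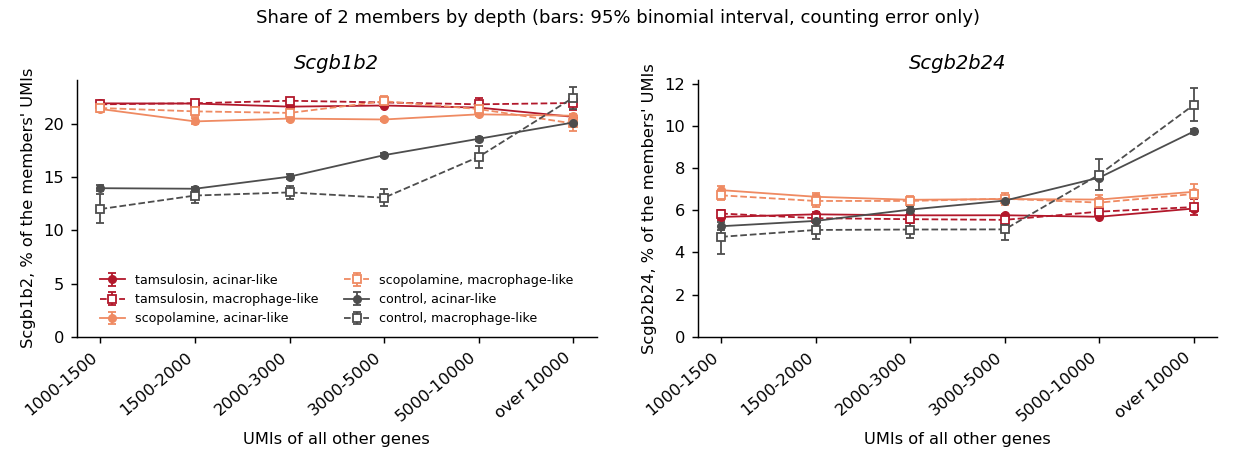
Percent of the members' UMIs given by Scgb1b2 (left) and Scgb2b24 (right) against the UMIs of all other genes, for acinar-like (filled circles, solid lines) and macrophage-like nuclei (open squares, dashed lines) of each library; bars are 95% binomial intervals for counting error. The control lines climb with depth in both classes, to 20.1% for Scgb1b2 and 9.74% for Scgb2b24 in acinar-like nuclei.

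Scgb1b27 had its highest level outside the 6 classes. Nuclei with salivary gland markers (206 in the tamsulosin library, 37 in the control library, 0 in the scopolamine library) held 688 CPM of Scgb1b27 in the tamsulosin library, from 502 UMIs, and 97.6 CPM in the control library, from 8 UMIs. Against macrophage-like nuclei that was 50.5-fold (33.0 to 81.4) higher in the tamsulosin library. With 0 UMIs in control macrophage-like nuclei, it was 37.6-fold higher than the level of 3 counts in the control library, a value from 8 UMIs without an interval. Against acinar-like nuclei it was 53.3-fold (44.6 to 63.8) and 397-fold (121 to 1387) higher, the second from 8 and 6 UMIs. At 1000 UMIs per nucleus, 20.9% (15.5 to 27.1) of salivary-like nuclei in the tamsulosin library and 10.8% (3.03 to 25.4) in the control library had a UMI. In macrophage-like nuclei the share was 1.97% in the tamsulosin library and 0 of 317 in the control library, which allows up to 0.946%. The unthinned shares in salivary-like nuclei were 31.6 and 16.2%. In the scopolamine library, which had no such nuclei, 37 UMIs of Scgb1b27 fell in low-complexity nuclei, 13 in acinar-like nuclei and 24 in a shallow cluster that no marker list named.

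The other 6 members did not follow. In the tamsulosin library their salivary-like to macrophage-like ratio lay between 1.09 (Scgb2b20) and 1.42 (Scgb2b2). A single salivary-like barcode of that library held 38915 of the class's 202363 member UMIs, beside a median of 574.5. Ratios without that barcode, and its part in the Scgb1b27 level, are not given here. Relative to the class median of -0.67 all 7 were higher by 1.5-fold, against 23.1% of all genes measured, while in the control library 4 of 6 were, against 19.2%. Of 9 salivary markers, 6 had a UMI in salivary-like nuclei of the tamsulosin library and 4 in those of the control library, against 7 and 8 in acinar-like nuclei. Their summed level was 100685 and 55359 CPM in salivary-like nuclei, against 421 and 109 CPM in acinar-like nuclei. Dcpp2, Smgc and Muc19 were at 0 in salivary-like nuclei of the tamsulosin library, while its duct-like nuclei held 38 UMIs of Dcpp2. Bpifa2, the parotid secretory protein, stood at 49607 CPM in tamsulosin and 20377 CPM in control salivary-like nuclei, at 377 and 27.7 CPM in macrophage-like nuclei, and at 0 UMIs in every class of the scopolamine library. Scgb1b27 was therefore highest where the summed salivary markers were highest, in both libraries that contained such nuclei, though not every marker followed.

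**Figure D5:**
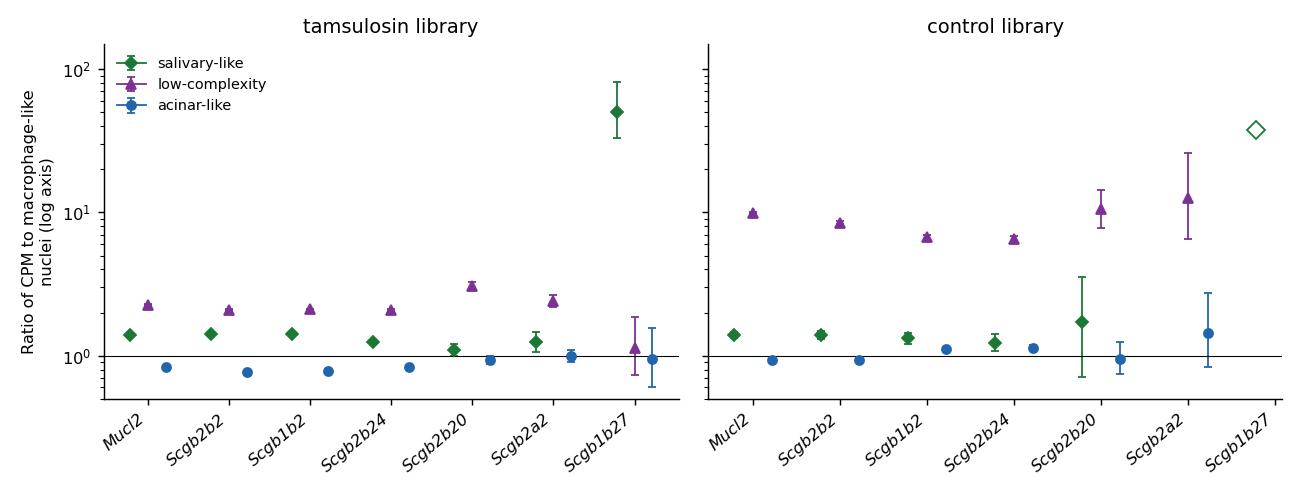
Ratio of CPM to that of macrophage-like nuclei (log axis) for each member in salivary-like nuclei (diamonds), low-complexity nuclei (triangles) and acinar-like nuclei (circles) of the tamsulosin library (left) and the control library (right), with 95% intervals. The open diamond is a ratio to the level of 3 counts, without an interval. Scgb1b27 stands apart in salivary-like nuclei, at 50.5 in the tamsulosin library and at 37.6 against the level of 3 counts in the control library.

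The same-numbered neighbours of the members showed which pairs were high together. Scgb2b27 lies 7540 bases from Scgb1b27 with no gene between them. It stood at 867 CPM in tamsulosin and 85.4 CPM in control salivary-like nuclei, beside 688 and 97.6 CPM for Scgb1b27, and at 18.6 and 1.73 CPM in macrophage-like nuclei. These 2 genes encode subunits of the salivary androgen-binding protein, and both were highest in the salivary-like class. Scgb1b20 lies 6911 bases from Scgb2b20, and in acinar-like nuclei it stood at 1052, 283.5 and 54.8 CPM in the tamsulosin, scopolamine and control libraries, beside 651, 203.8 and 54.3 CPM for Scgb2b20. The ratio of molecules within this pair was 1.62, 1.39 and 1.01.

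The pair numbered 24 did not keep together. Scgb1b24 lies 4486 bases from Scgb2b24, yet in acinar-like nuclei it stood at 321, 337 and 373 CPM in the tamsulosin, scopolamine and control libraries, beside 9347, 7484 and 2643 CPM for Scgb2b24. The ratio of Scgb1b24 to Scgb2b24 was 0.0343, 0.0450 and 0.141. In macrophage-like nuclei Scgb1b24 stood at 283, 231 and 264 CPM. The higher level of Scgb2b24 in the tamsulosin and scopolamine libraries was thus not matched by its neighbour, whose relative log2 ratio was 0.14 for tamsulosin over control and 0.07 for scopolamine over control. Scgb2b7, the near copy of Scgb2b20, stood at 272, 32.8 and 52.7 CPM in acinar-like nuclei, so unlike Scgb2b20 it was lower in the scopolamine library than in the control library. Its neighbour Scgb1b7 stood at 710, 94.1 and 53.7 CPM. Counts of Scgb2b20 and Scgb2b7 are uncertain against each other, so their contrast is a description only.

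Low-complexity nuclei, barcodes with fewer than 350 genes at 1000 UMIs in the cluster median, held the largest part of the members in the tamsulosin and scopolamine libraries. They numbered 3333 in the tamsulosin library, 541 in the scopolamine library and 44 in the control library. Members made up 43.5% of their UMIs in the tamsulosin library, 54.0% in the scopolamine library and 33.2% in the control library. They carried 48.2, 37.1 and 6.72% of all member UMIs of the nuclei kept. Malat1, a long noncoding RNA kept in the nucleus, made up 0.843, 0.384 and 0.840% of their UMIs, against 2.77, 4.16 and 3.13% in acinar-like nuclei. Over macrophage-like nuclei the members together were 2.19-fold, 4.15-fold and 8.89-fold higher, and 6 of 6 members measured passed the fold in each library, against 25.8, 19.9 and 21.9% of all genes. The class was set by genes at 1000 UMIs with the members counted, and a high member share by itself lowers that number. Both clusters of this class (1 and 16) also have members among their leading genes, so these shares and counts are a description only. The shallow unnamed cluster was nearly confined to the scopolamine library, with 47, 3618 and 42 nuclei in the tamsulosin, scopolamine and control libraries, and members made up 22.5, 21.95 and 5.64% of its UMIs. In the scopolamine library it had a median of 1077 UMIs and carried 17.1% of the member UMIs.

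Within the low-complexity nuclei Scgb2b20, whose counts are uncertain against Scgb2b7, departed from the others. In the tamsulosin library it stood at 2138 CPM in low-complexity nuclei, 3.07-fold (2.90 to 3.27) over macrophage-like nuclei, while the other members with over 100 UMIs in macrophage-like nuclei lay between 2.09 and 2.40. In the scopolamine library it stood at 625 CPM, 2.209-fold (1.997 to 2.448), while those members lay between 3.64 and 4.51. In the control library it stood at 601 CPM, from 148 UMIs. With the barcode richest in Scgb2b20 left out of each class these ratios were 3.33 in the tamsulosin library, 2.74 in the scopolamine library and 6.39 in the control library, the last against 10.5 with it. Among those members its ratio was thus the highest in the tamsulosin library and the lowest in the scopolamine library, and no test of that difference was possible with 1 library each.

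Acinar-like clusters also differed in member level and in depth. In the tamsulosin library clusters 5, 13 and 17 held 34222, 79306 and 120450 CPM of Mucl2, with median depths of 12282.5, 5592 and 2536 UMIs. In the control library cluster 2 held 12230 CPM at a median of 10398.5 UMIs, cluster 0 held 20311 CPM at 2657 UMIs and cluster 3 held 26126 CPM at 1871 UMIs. In these libraries the shallower cluster had the higher Mucl2 level. In the scopolamine library cluster 5 held 48985 CPM at 5108 UMIs, cluster 13 held 90558 CPM at 4830.5 UMIs, cluster 0 held 63470 CPM at 1941 UMIs and cluster 3 held 81142 CPM at 1352 UMIs. There cluster 13 was the highest although clusters 0 and 3 were shallower. In clusters 5 and 13 Mucl2 was lower in the tamsulosin than in the scopolamine library (34222 against 48985 and 79306 against 90558 CPM). That is opposite to the summed acinar-like class, and both clusters were deeper in the tamsulosin library. In clusters 0 and 3 Mucl2 was higher in the scopolamine than in the control library. The part of the cluster make-up in the summed differences was not tested.

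Of the other 30 secretoglobin and mucin-like genes of the list, 13 had 0 UMIs in all 3 libraries, 12 had 1 to 1000 and 5 had over 1000. In acinar-like nuclei 4 of the 30 were measured. Of these, 2 were higher and 0 lower in the scopolamine library than in the control library, 3 higher and 0 lower in the tamsulosin library than in the scopolamine library, and 3 higher and 0 lower in the tamsulosin library than in the control library. Of 29 other secreted tear protein genes, 18 to 20 were measured. For scopolamine over control 9 were higher and 3 lower, with a median relative log2 ratio of 0.74. For tamsulosin over scopolamine 11 were higher and 0 lower (median 0.97), and for tamsulosin over control 18 were higher and 1 lower (median 1.72). Obp1a, a lipocalin that binds odorants, stood at 59973, 44751 and 14984 CPM in acinar-like nuclei. Pip, the prolactin-induced protein, stood at 5302, 3413 and 1196 CPM. Pnliprp1, a pancreatic lipase relative, went against them, at 46.6, 65.8 and 1436 CPM.

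The 14 genes of secretory cell regulators, receptors and transcription factors of secretory cells, differed less. Of 12 measured in acinar-like nuclei, 0 were higher and 0 lower for scopolamine over control and for tamsulosin over scopolamine. For tamsulosin over control, Bhlha15, a transcription factor of secretory cell architecture, was higher (relative log2 ratio 0.82) and Adra1a, the alpha-1A adrenergic receptor, was lower (-0.64). The muscarinic receptor gene Chrm3 stood at 3277 CPM in tamsulosin, 3875 CPM in scopolamine and 3747 CPM in control acinar-like nuclei. In that comparison 8.77% of all genes were higher and 3.88% lower. For tamsulosin over control, 6 of 11 genes of the list were lower in myoepithelial-like, 5 of 11 in macrophage-like and 5 of 12 in T or NK-like nuclei. The share of all genes that were lower in these classes is not given here, so these counts are a description only.

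The genes most like the members were other tear protein genes. Over 18 profiles (6 classes in 3 libraries) and 5979 genes, the summed member level correlated most with Obp1a (Pearson r 0.997), then Pip (0.966), Lcn11 (0.958), Scgb1b20 (0.957) and Ubb (0.952). The profiles share libraries and depth, so these values are a description and carry no p. Over 42 cluster profiles 4 of the 5 kept a place among the top 4 and Ubb, a ubiquitin gene, stood at place 38. Mucl2, Scgb2b2, Scgb1b2 and Scgb2b24 each had Obp1a and Pip as the nearest genes outside the members. Scgb2b20 was nearest to Scgb1b20 (0.997), Scgb2a2 to Scgb1b20 (0.982) and Pip (0.981), and Scgb1b27 to Scgb1b7 (0.958). Over the cluster profiles Scgb1b7 stood at place 13 for Scgb1b27, at an r of 0.697.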

How the data were processed

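Lacrimal gland nuclei of 3 libraries (tamsulosin, scopolamine, control; n = 1 each) were measured by 10x 3' RNA sequencing. The deposited values are raw counts of UMIs for every gene in every barcode. The submitters' processing notes name Cell Ranger 5.0.0 and mm10. Intron counting, strand use and the cut on shallow barcodes are not given in the sources used here.

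Nuclei with at least 500 UMIs, 300 genes and at most 5% mitochondrial UMIs were kept. Scrublet (scanpy 1.11.5) marked 1 nucleus per library, so the highest doublet scores were removed at 0.8% per 1000 nuclei (1209, 804 and 421). Clustering left out the members and other tear genes (2000 variable genes, 30 components, 15 neighbours, Leiden resolution 1, igraph 0.11.9). Thresholds for naming clusters were set after the clusters were seen. UMIs were summed per class and library and scaled to CPM. CPM carry exact Poisson, shares Clopper-Pearson and ratios conditional binomial 95% intervals, which cover counting error only. Log2 ratios used a pseudocount of 5 CPM and were centred on the median of genes averaging 20 CPM or more. The code was tested on simulated data. Classes were compared where each library had at least 100 nuclei. Genes named by rule were the members and the nearest genes by Pearson r (5 for the sum, 2 for each member). List genes and neighbours named with values were chosen after their values were seen.

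The members, the gene lists and the pairs of neighbouring genes were chosen with earlier results of these data known. Gene positions come from GENCODE M21 and promoters from RefSeq (GRCm38.p6). Scripts ran under Python 3.11.15 (scipy 1.17.1, scikit-learn 1.9.0, Biopython 1.88, pandas 2.3.3, numpy 2.4.6).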

Additional observations from a re-analysis of the deposited data

Results flagged for a closer look

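The ratio of acinar-like to macrophage-like nuclei ran in opposite directions between libraries for 2 members, and this difference was not tested. Scgb1b2 had a ratio of 0.787 in the tamsulosin library and 0.847 in the scopolamine library, against 1.11 in the control library. Scgb2b24 had a ratio of 0.827 in the tamsulosin library and 0.875 in the scopolamine library, against 1.13 in the control library.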

How the results depend on the processing

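No paired analysis was possible because each group has 1 library. In acinar-like nuclei the members' summed log2 ratio was 1.64 for scopolamine over control, 0.51 for tamsulosin over scopolamine and 2.14 for tamsulosin over control, and the acinar-like over macrophage-like log2 ratio was -0.31 in the tamsulosin, -0.20 in the scopolamine and -0.04 in the control library. Values under alternatives follow in this order where they moved beyond counting error. With a Leiden resolution of 2 they were 1.68, 0.44, 2.12, -0.39, -0.24 and -0.0026, and 3 members instead of 5 passed the fold for tamsulosin over scopolamine. With the members left out of the total they were 1.76, 0.59, 2.34, -0.38 and -0.23. With at least 1000 UMIs and 500 genes they were 1.68, 0.58, 2.26, -0.23, -0.098 and -0.075. With at least 1600 UMIs they were 1.70, 0.50, 2.20, -0.34, -0.068 and -0.011. With doublets kept they were 1.75, 0.52, 2.26, -0.21, -0.11 and -0.056. With a mitochondrial limit of 1% they were 1.76, 0.53, 2.30, -0.17, -0.15 and -0.012. With secretory genes in the clustering they were 1.48, 0.65 and 2.13, then -0.18 (tamsulosin) and 0.096 (control). With low-complexity nuclei counted as acinar-like they were 2.44, 0.47, 2.92, 0.58, 0.71 and 0.074. With all non-epithelial nuclei as background the class ratio was 0.0051 (tamsulosin) and 0.26 (scopolamine), and by the median share per barcode it was -0.28, -0.26 and 0.14. Of 2 alternatives chosen after seeing the data, nuclei with 2000 to 3000 other UMIs gave 1.44, 0.68, 2.11, 0.026, 0.014 and 0.13, and counting the mixed shallow cluster as acinar-like gave 1.95, 0.20, -0.30 (tamsulosin) and 0.11 (scopolamine), with 2 members passing for tamsulosin over scopolamine. The summed differences between libraries kept their direction under each of these, while the sign of the class ratio did not, and the cause was not tested. Single clusters were not among these alternatives. In acinar-like clusters 5 and 13 Mucl2 was lower in the tamsulosin than in the scopolamine library. In all, 63 of these summary values moved beyond counting error and 39 did not. Of the single members, Scgb2b24 for tamsulosin over scopolamine (log2 0.32) was -0.0051 with the mixed shallow cluster counted as acinar-like. Class ratios of single members changed sign too, and the class ratio of Scgb1b27 in the scopolamine library (log2 -1.35, from 13 and 4 UMIs) turned to 0.21 with low-complexity nuclei as acinar-like and to 0.65 with the wider background. Depth limits Scgb1b27 in the scopolamine and control libraries, with 13 and 6 UMIs in acinar-like nuclei.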
